A study of Mus musculus with 6 samples.

Results

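H3K27ac, the acetylation of histone H3 at lysine 27 that marks active promoters and enhancers, was examined at 8 genes that encode myokines: Fndc5, Metrnl, Il6, Il15, Lif, Bdnf, Fgf21 and Sparc. Their peaks were the rows of the 2 deposited peak lists whose gene name, assigned by the nearest transcription start site, was 1 of these 8. The control list gave 32 such peaks of 46988, and the detrained list gave 28 of 40721. Together they covered 7 of the 8 genes, because Fgf21 had no peak in either list. Most of these peaks were present in both groups, and of the 19 that could be paired 0 differed by 1.5-fold in tags per kb, where 1.10% of all pairs were higher and 2.06% lower by this measure. By tags per peak, 3 of the 19 did, 1 higher and 2 lower, where 5.51% of all pairs were higher and 5.08% lower. Both detrained libraries stood above both control libraries in tags per kb as well as in tags per peak at 1 of the 19 pairs, an intergenic one downstream of Lif, where 6.37% of all pairs did so.

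Myokines are proteins that muscle releases, some of them during contraction, and that act on the muscle itself or on distant tissues. Fndc5 encodes the membrane protein from which irisin is cleaved, and Metrnl encodes meteorin-like. Il6 and Lif encode cytokines that signal through the shared receptor chain gp130, Il15 encodes a cytokine for lymphocytes that muscle also makes, Bdnf encodes a neurotrophin, Fgf21 encodes a stress-induced endocrine growth factor, and Sparc encodes a collagen-binding matrix protein.

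The samples were quadriceps of male wild-type C57BL/6 mice (C57BL/6J in the methods) that were 8 weeks old at the start. Control mice stayed sedentary, and detrained mice ran on voluntary wheels for 4 weeks and then rested for 72 h, with 2 H3K27ac libraries and 1 input library per group. Each H3K27ac library came from a quadriceps of 1 mouse, and the labels of the inputs read C57BL/7 in control and C57BL/8 in detrained samples, which may be slips of entry and was not resolved here. The comparison asks whether acetylation still differs after the running has stopped. The H3K27ac libraries held 20805019 to 22400894 tags, of which 44.7% to 49.4% lay in listed peaks, and the inputs held 10812470 (control) and 21298438 (detrained). Of 7 myofibre markers, 6 had a peak in both lists. No peak carried the name of Tnnt3, a fast troponin gene, and peaks near it under the name of another gene were not sought. In whole muscle, fewer cells of a type and less acetylation per cell cannot be told apart.

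The promoters of these genes differ widely in base composition, so the bases just upstream of their start sites are shown for the promoters that carried a peak and for those that did not. They are RefSeq sequences of GRCm38, the assembly that is also called mm10, written 5′ to 3′ on the strand of the gene. Capitals mark matches to short motifs on either strand, namely the ERR element AAGGTCA, the AP-1 sites TGACTCA and TGAGTCA, the cAMP response element TGACGTCA, the E-box CAGCTG, the amino acid response element TTGCATCA and the TATA box TATAAA. RefSeq windows were matched for 7 of the 8 genes, and Il15 was not matched. Each line ends 1 base before the start site, except that of Fndc5, which stops at the first annotated exon.
Fndc5 (chr4:129136749-129136869, plus strand): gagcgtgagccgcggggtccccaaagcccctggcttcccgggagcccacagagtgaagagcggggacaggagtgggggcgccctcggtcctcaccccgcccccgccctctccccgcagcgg
Metrnl (chr11:121702177-121702426, plus strand): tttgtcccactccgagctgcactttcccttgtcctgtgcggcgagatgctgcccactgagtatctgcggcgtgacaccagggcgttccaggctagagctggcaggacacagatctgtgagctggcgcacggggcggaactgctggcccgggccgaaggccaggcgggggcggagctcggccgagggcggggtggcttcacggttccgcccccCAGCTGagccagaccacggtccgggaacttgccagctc
Il6 (chr5:30012864-30013113, plus strand): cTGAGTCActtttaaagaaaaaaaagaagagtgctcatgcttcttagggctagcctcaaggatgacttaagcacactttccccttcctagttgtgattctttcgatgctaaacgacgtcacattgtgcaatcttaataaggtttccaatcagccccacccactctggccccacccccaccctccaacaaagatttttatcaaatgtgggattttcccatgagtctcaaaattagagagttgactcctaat
Sparc (chr11:55420081-55420330, minus strand): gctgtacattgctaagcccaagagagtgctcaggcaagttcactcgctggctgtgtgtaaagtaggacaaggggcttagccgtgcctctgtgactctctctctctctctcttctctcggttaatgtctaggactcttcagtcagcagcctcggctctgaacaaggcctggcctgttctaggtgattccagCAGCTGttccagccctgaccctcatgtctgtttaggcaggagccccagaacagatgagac
Bdnf (chr2:109694159-109694408, plus strand): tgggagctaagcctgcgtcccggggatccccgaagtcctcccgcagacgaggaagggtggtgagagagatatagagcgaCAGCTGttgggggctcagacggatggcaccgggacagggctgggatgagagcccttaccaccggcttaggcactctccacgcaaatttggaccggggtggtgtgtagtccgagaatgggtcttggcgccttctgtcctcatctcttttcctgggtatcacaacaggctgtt
Lif (chr11:4257318-4257567, plus strand): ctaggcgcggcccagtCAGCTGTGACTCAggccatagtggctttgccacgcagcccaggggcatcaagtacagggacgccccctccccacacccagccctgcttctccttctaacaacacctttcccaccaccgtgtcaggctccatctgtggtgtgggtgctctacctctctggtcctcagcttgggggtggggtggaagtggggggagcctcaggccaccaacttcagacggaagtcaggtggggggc
Fgf21 (chr7:45615491-45615740, minus strand): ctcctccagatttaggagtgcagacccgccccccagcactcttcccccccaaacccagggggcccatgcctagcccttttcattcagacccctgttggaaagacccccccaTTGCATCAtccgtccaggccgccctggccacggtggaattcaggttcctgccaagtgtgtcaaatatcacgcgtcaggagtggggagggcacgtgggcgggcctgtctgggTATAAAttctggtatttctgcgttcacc
The first 4 lay in a peak of both lists over all 250 upstream bases, apart from Il6, where the control peak covered 163 of them. The Bdnf stretch is the only one of the 7 Bdnf windows that touched a peak, with 186 bases in a control peak. The Lif and Fgf21 stretches touched no peak.

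CpG content overlapped between the promoters with a peak and those without. The ratio of observed to expected CpG over the 250 upstream bases was 0.94 at Fndc5, 0.69 at Metrnl, 0.28 at Il6 and 0.22 at Sparc, all of which carried a peak. It was 0.24 at Lif and 0.41 at Fgf21, which carried none. The median over 32851 RefSeq promoter windows was 0.37. Fndc5, at 80.8% G and C, was richer in these bases than 99.0% of all windows. An AP-1 match lay 249 bases upstream of the Il6 start site. Another lay 228 bases upstream of the Lif start site, directly after an E-box, and 4.46% of all windows held an AP-1 match. Fgf21 held a match to the amino acid response element 139 bases upstream, a match that 0.791% of windows had, and a TATA box 28 bases upstream, which 12.4% of windows had. E-box matches also lay in the windows of Sparc, Metrnl and Bdnf, and 13.0% of all windows held one. The ERR element (4.08% of windows) and the cAMP response element (1.55%) matched none of the windows of the 7 genes. These are matches of letters and not measured binding sites.

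The genes differed widely in how many peaks they had. Sparc had 9 peaks in control and 7 in detrained muscle, and Lif had 8 and 10. Metrnl had 4 in each list, Fndc5 and Il6 had 2 in each, Il15 had 4 and 2, and Bdnf had 3 and 1. The median over all genes with a peak was 2 in either list, and 92.7% of such genes had fewer peaks than Sparc in the control list. The peaks lay mostly away from promoters. In the control list 18 were intergenic, 11 intronic, 1 exonic and 2 at promoters, and in the detrained list 15 were intergenic, 10 intronic, 1 in a 3′ UTR and 2 at promoters. The deposited class follows the centre of a peak, so that some peaks called intronic or exonic still lay across a start site. Counted by the start sites they covered, 5 control and 6 detrained peaks lay over a curated start site, those of Fndc5, Metrnl, Il6, Il15 and Sparc in both lists and the second one of Lif in detrained muscle. A distal peak is tied to its gene by distance alone, and no contact between the peak and the gene was measured.

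**Figure D1:**
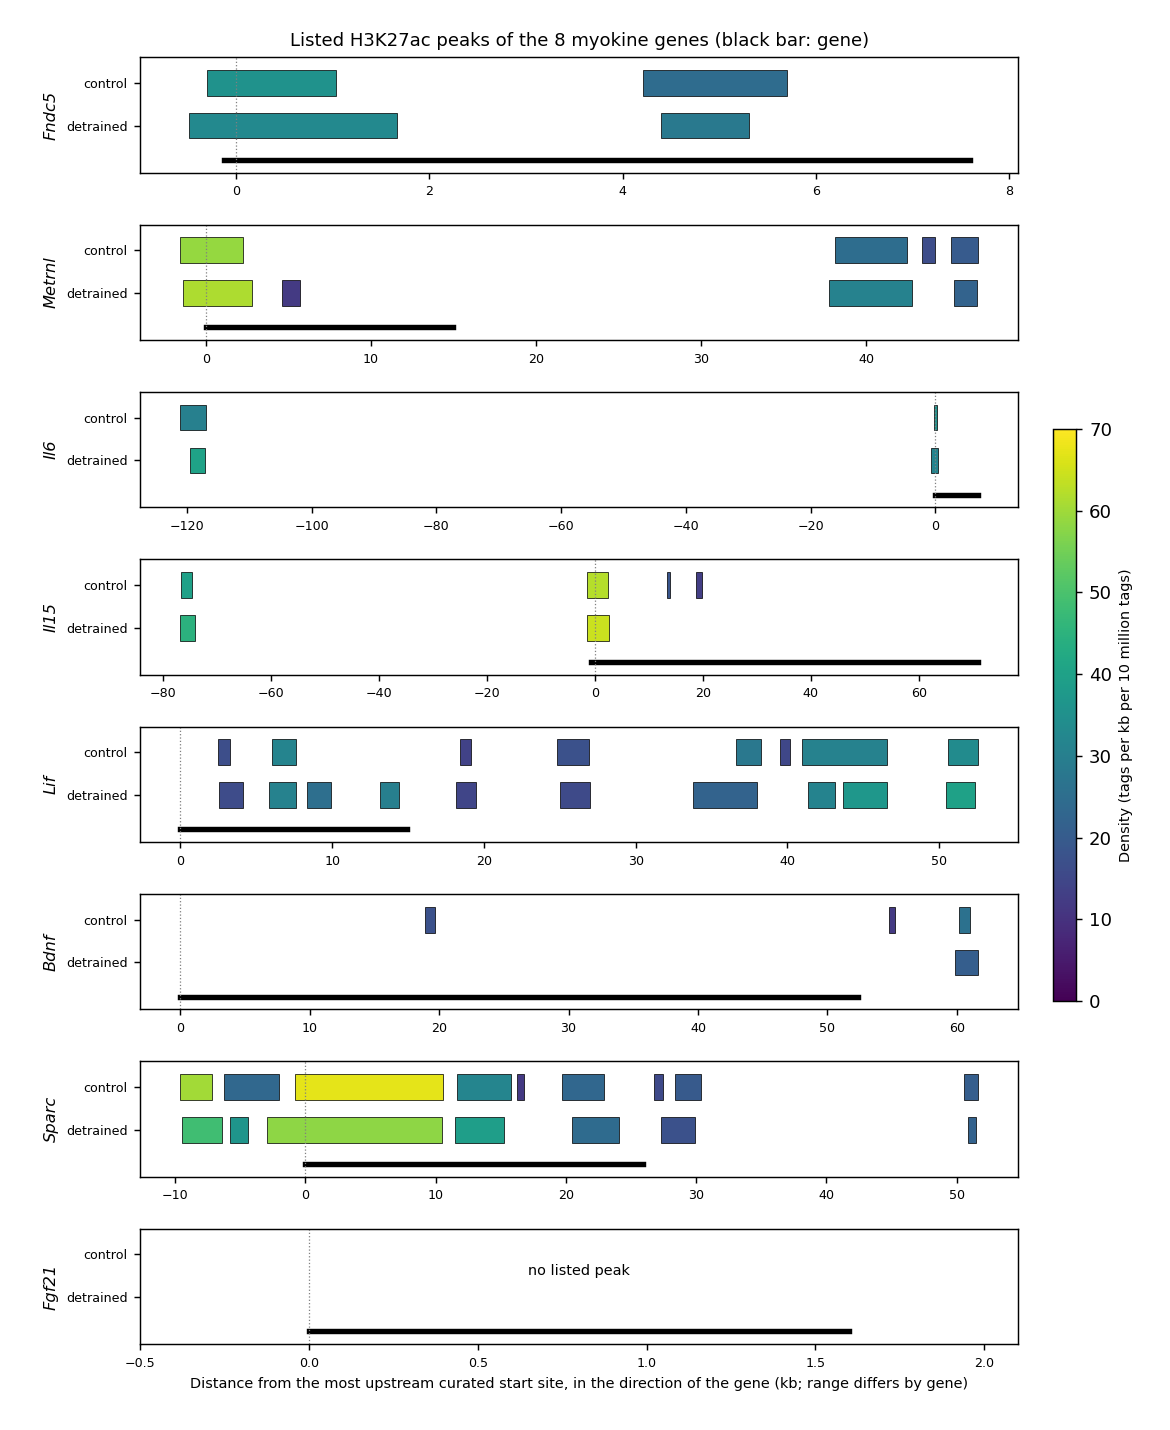
Listed H3K27ac peaks of each gene in control (upper row) and detrained muscle (lower row), by distance in kb from the most upstream curated start site in the direction of the gene, with colour for mean density in tags per kb per 10000000 tags. Black bars are the genes and the horizontal range differs between them; peaks over the start sites of Metrnl, Il15 and Sparc are among the densest, Sparc and Lif have the most peaks, and Fgf21 has none.

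In what follows, density is the number of tags per kb of the called peak per 10000000 tags of the library, with 0.5 tags added. Tags per peak, and sums of them, are the same measure without division by length. They too are per 10000000 tags of the library and are not raw tags. Overlapping peaks of the 2 lists were taken as a pair where at least 50% of each was covered and neither had another such partner. This gave 26432 pairs in all, of which 19 belonged to 6 of the myokine genes. Libraries are named C2 and C3 (control) and Ex1 and Ex2 (detrained). Values are set across lists that the authors normalized separately, so the groups were not tested against each other, and a two-sided exact permutation test of so few libraries cannot reach a p under 0.333. A difference is instead read against the spread within groups, by whether the groups stood apart, that is, whether both detrained libraries were above or both were below the 2 control libraries. The split between the libraries of a list rests on shrunken log values, while the gap between groups rests on pooled tags. The SDs within groups may therefore be too small and groups may stand apart too readily, among all pairs as well.

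Fndc5 and Metrnl, the genes of irisin and meteorin-like, both carried a peak over the start site in each list. At Fndc5 (chr4:129136696-129138036 in control) density was 35.5 (C2) and 36.1 (C3) in control and 31.4 (Ex1) and 34.6 (Ex2) in detrained libraries. Both detrained libraries were thus below the control libraries, but by only -0.12 on the log2 scale (pooled SD within groups 0.071), a difference of -0.049 without Ex1 and -0.19 without Ex2. The detrained peak was called longer, 2160 bp against 1340 bp, and by tags per peak the order was the opposite, at 47.5 and 48.3 tags in control and 67.7 and 74.7 in detrained libraries. The second Fndc5 peak, in intron 4, showed densities of 23.9 and 24.8 in control and 24.2 and 33.0 in detrained libraries, which overlapped.

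At Metrnl the start-site peak (chr11:121700884-121704688 in control) was among the strongest of the myokine peaks, with densities of 63.0 (C2) and 54.96 (C3) in control and 68.0 (Ex1) and 55.7 (Ex2) in detrained libraries. The groups overlapped and differed by 0.064 on the log2 scale (SD 0.17). This peak was denser than 84.5% of all peaks in either list. Beyond the gene, a peak 40.3 kb from the start site had densities of 27.2 and 22.7 in control and 35.0 and 27.1 in detrained libraries. Its log2 difference of 0.31 was larger than the SD of 0.22, but Ex2 was at the level of C2. Another peak 46.0 kb away overlapped between groups as well. A short control peak 43.8 kb away and a detrained peak in intron 1 had no counterpart, with mean densities of 16.2 and 11.8.

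Il6 had a promoter peak and a peak 119 kb upstream in both lists. The promoter peak was narrow, 500 bp in control (chr5:30012951-30013451) and 1110 bp in detrained muscle (chr5:30012451-30013561), and the difference in length kept it out of the pairs. Its density was 36.8 (C2) and 34.5 (C3) in control and 34.1 (Ex1) and 29.2 (Ex2) in detrained libraries. Density was thus slightly lower in detrained libraries, while tags per peak were higher, at 18.4 and 17.3 in control against 37.9 and 32.4 in detrained libraries. Among promoter peaks of the control list it was weak, denser than only 17.8% of them. This peak also lies over A230098N10Rik, a noncoding gene next to Il6, and the values cannot be divided between the genes.

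The distal Il6 pair (chr5:29892056-29896123 in control) had the largest difference in density of all 19 pairs. Density was 30.0 (C2) and 30.4 (C3) in control and 41.8 (Ex1) and 39.1 (Ex2) in detrained libraries, a log2 difference of 0.42 (SD 0.050) with the groups apart. The called region, however, shrank from 4067 to 2361 bp. In tags per peak the detrained libraries were the lower ones, at 98.8 and 92.3 against 122 and 124 in control, so the direction depended on whether length was divided out. No annotated gene overlapped this peak.

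Il15, the cytokine gene with the longest transcribed region of the 8, had 1 strong peak at its start site and a second one 75.7 kb upstream. The start-site peak (chr8:82400096-82404069 in control) had densities of 56.9 (C2) and 68.2 (C3) in control and 66.1 (Ex1) and 62.7 (Ex2) in detrained libraries. The detrained libraries fell between the control libraries, with a log2 difference of 0.047 (SD 0.14). At the upstream peak the control libraries themselves differed widely, 30.2 in C2 against 52.4 in C3, and the detrained libraries at 42.9 and 46.5 lay between them. Control muscle listed 2 further peaks in intron 1, with mean densities of 18.6 and 12.7, that had no detrained counterpart.

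Lif, the gene of leukaemia inhibitory factor, had most of its peaks away from promoters. Its canonical promoter, shown above, had no peak, and the strongest acetylation lay in an intergenic stretch beyond the 3′ end. The peak 42.3 kb from the nearest start site (chr11:4308132-4310125 in control) had densities of 34.1 (C2) and 32.6 (C3) in control and 37.3 (Ex1) and 43.1 (Ex2) in detrained libraries. Both detrained libraries were higher, with a log2 difference of 0.27 (SD 0.11) that was 0.37 without Ex1 and 0.16 without Ex2. Peak lengths were close, 1993 and 1874 bp, and tags per peak were also higher, at 68.0 and 65.0 in control and 69.8 and 80.8 in detrained libraries. Of the 19 pairs, it was the only one whose groups stood apart in the same direction on both scales. Over all pairs, 6.37% were higher on both and 9.60% lower on both, so that 1 of 19 was no more than this background. The 95% interval of its log2 ratio from counting error alone was 0.041 to 0.51.

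At a second Lif pair, 34.5 kb away, density was 31.3 and 30.9 in control and 34.6 and 39.9 in detrained libraries. Here the single control peak of 5595 bp overlapped 2 detrained peaks, of which only the 2907 bp one entered the pair. With both detrained peaks summed, tags were 175 and 173 in control and 157 and 171 in detrained libraries, lower in both detrained libraries by only -0.089 on the log2 scale. Density over the summed stretch was 33.4 and 36.4 in detrained libraries, still above the 31.3 and 30.9 of control. The peaks 9.57 kb and 16.7 kb from a start site and the intronic peak 2.41 kb before the second start site overlapped between groups, with log2 differences from -0.15 to 0.072. The peaks 2.86 kb and 28.2 kb away overlapped a detrained peak without being paired, because the detrained peaks were longer. At the second of these, density was 27.1 and 28.8 in control and 21.9 and 22.2 in detrained libraries, while tags per peak were 45.4 and 48.3 against 93.5 and 94.6. Detrained muscle listed 2 Lif peaks with no control counterpart. They lay over the start site of the shorter transcript (chr11:4265900-4267522), with densities of 26.4 in Ex1 and 24.3 in Ex2, and in the 3′ UTR (chr11:4270757-4271993), with 31.5 and 28.6. Control muscle listed 1 without a detrained counterpart, 30.6 kb away, with 17.4 in C2 and 12.8 in C3. Of the control Lif peaks, 3, from 28.2 to 34.5 kb away, lay over Gm11958, a gene model beyond Lif.

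Bdnf was weakly acetylated. Control muscle listed a peak inside the gene at chr2:109693578-109694344, classed as a promoter peak of an internal start site, with densities of 18.2 in C2 and 16.6 in C3. It rested on an estimated 57.9 raw tags of both libraries (95% Poisson interval 44.0 to 74.98) and was weaker than all but 3.09% of control promoter peaks. No detrained peak overlapped it. An even weaker control peak 6.77 kb past the last start site also had no counterpart, with densities of 8.99 and 15.5. The remaining Bdnf peak, 12.4 kb past that start site, was listed in both groups, with densities of 23.9 (C2) and 28.5 (C3) in control and 21.04 (Ex1) and 20.2 (Ex2) in detrained libraries. Its called length was 884 bp in control and 1788 bp in detrained muscle, tags per peak were 21.1 and 25.2 against 37.6 and 36.1, and it was not paired. Absence from a list means that a region did not pass the peak caller, not that it held no tags.

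Fgf21 had no listed peak at any distance. The nearest peak to its start site began 11289 bp away in control and 11278 bp away in detrained muscle, and was assigned in both lists to Rasip1, an endothelial gene. Of 21900 protein-coding RefSeq genes, 39.7% were likewise named by no peak in either list.

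Sparc, which encodes a matrix protein made by fibroblasts and endothelial cells as well as by muscle, held the longest acetylated domain of the 8 genes. The domain ran over the start site and into the gene (chr11:55409494-55420908 in control). It spanned 11414 bp in control and 13473 bp in detrained muscle and was longer than 99.0% and 99.4% of the peaks in the respective lists. Density was 63.6 (C2) and 70.9 (C3) in control and 64.9 (Ex1) and 51.9 (Ex2) in detrained libraries. Ex1 lay between the control libraries and Ex2 below them, for a log2 difference of -0.21 (SD 0.18) that was -0.37 without Ex1 and -0.050 without Ex2. Tags per peak were 726 and 810 in control and 874 and 699 in detrained libraries, which overlapped as well.

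The detrained domain reached into a region that the control list called as a separate peak. With both stretches summed in each list, density was 53.5 and 57.4 in control and 62.2 and 50.5 in detrained libraries, a log2 difference of 0.015. The summed tags were 837 and 898 in control and 923 and 749 in detrained libraries. The peak 8.39 kb upstream (chr11:55427253-55429689 in control) had densities of 62.9 (C2) and 58.0 (C3) in control and 48.5 (Ex1) and 48.7 (Ex2) in detrained libraries, lower in both detrained libraries by -0.31 on the log2 scale (SD 0.058). Its tags per peak were 153 and 141 in control and 147 and 147 in detrained libraries, so the difference in density went with a called length of 3030 bp in place of 2436 bp. Within the gene, the peak 13.7 kb from the start site gave 28.6 and 35.8 in control and 45.4 and 33.2 in detrained libraries. The peaks 21.3, 29.4 and 51.1 kb away had log2 differences from -0.16 to 0.086 and overlapped between groups. Control muscle listed 1 further intronic Sparc peak of 500 bp, with a mean density of 11.6, that had no detrained counterpart.

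**Figure D2:**
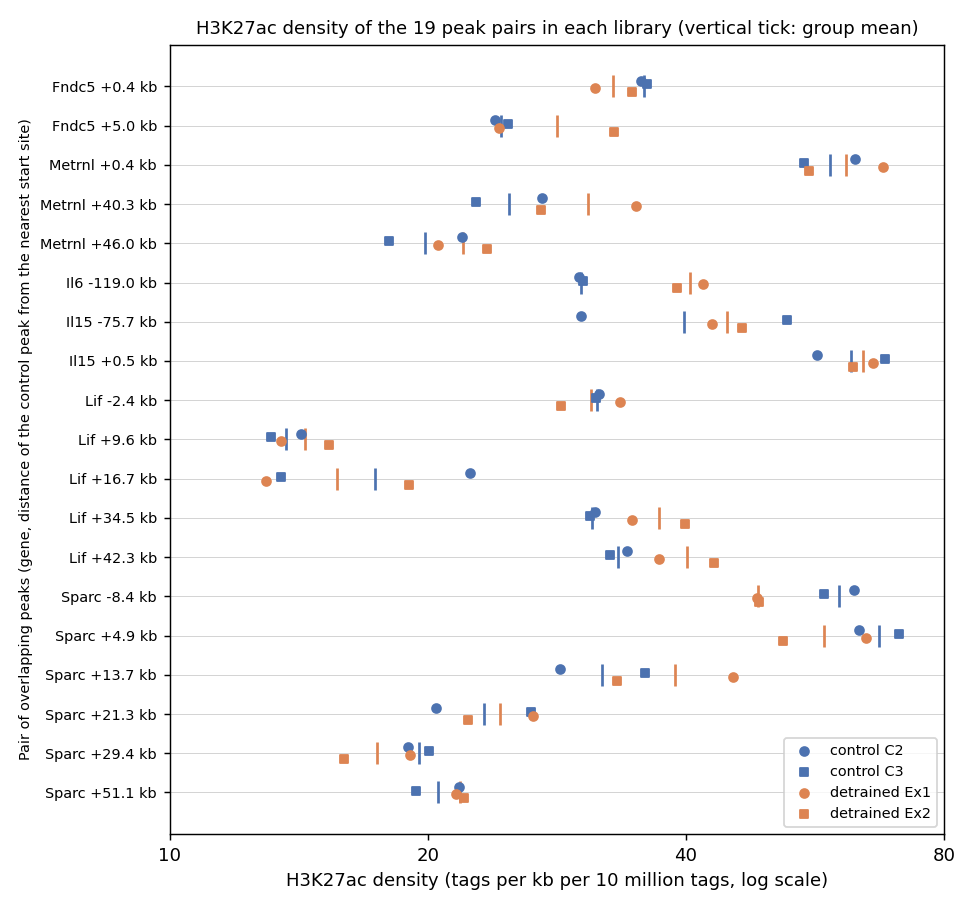
H3K27ac density (horizontal, tags per kb per 10000000 tags, log scale) of the 19 peak pairs of the myokine genes, named by gene and by distance of the control peak from the nearest start site. Points are the 4 libraries and vertical ticks are group means; the libraries of the groups stood apart at 5 pairs, with detrained higher at Il6 -119.0 kb, Lif +34.5 kb and Lif +42.3 kb and lower at Fndc5 +0.4 kb and Sparc -8.4 kb.

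Across the 19 pairs, detrained muscle was higher in density with the groups apart at 3 pairs and lower at 2. With any one-to-one overlap taken as a pair, the order turned to 2 higher and 5 lower of 20 pairs, where 49.0% of all 28730 pairs stood apart. By tags per peak it was 6 higher and 4 lower of the 19, where 53.4% of all pairs stood apart. By density and with pairs as first defined, 21.3% of all 26432 pairs were higher and 27.2% lower with the groups apart. The myokine shares of 15.8% and 10.5% were thus no larger than those of all peaks. At 1.5-fold with the groups apart, 0 of the 19 were counted, where 1.10% of all pairs were higher and 2.06% lower. Log2 differences ran from -0.31 to 0.42, a range that held 82.8% of all pairs. Their median was 0.072 (13 above and 6 below 0), beside a median of -0.026 over all pairs, of which 46.0% were above 0. Without 1 library the median of the 19 ran from 0.014 (without C3) to 0.13 (without C2), and that of all pairs from -0.058 (without C2) to 0.0073 (without C3). At 15 of the 19 pairs the 2 libraries of at least 1 group differed from each other by as much as the groups did or more. Of the control peaks, 7 of 32 had no overlapping detrained peak, and of the detrained peaks 3 of 28 had no overlapping control peak. The corresponding shares of all peaks were 27.9% and 18.0%. Each of the 7 control peaks was among the weakest 24.3% of its list, and the 3 detrained peaks were in the weaker 49.8%. A further 6 peaks of each list overlapped a peak of the other list without forming a pair.

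**Figure D3:**
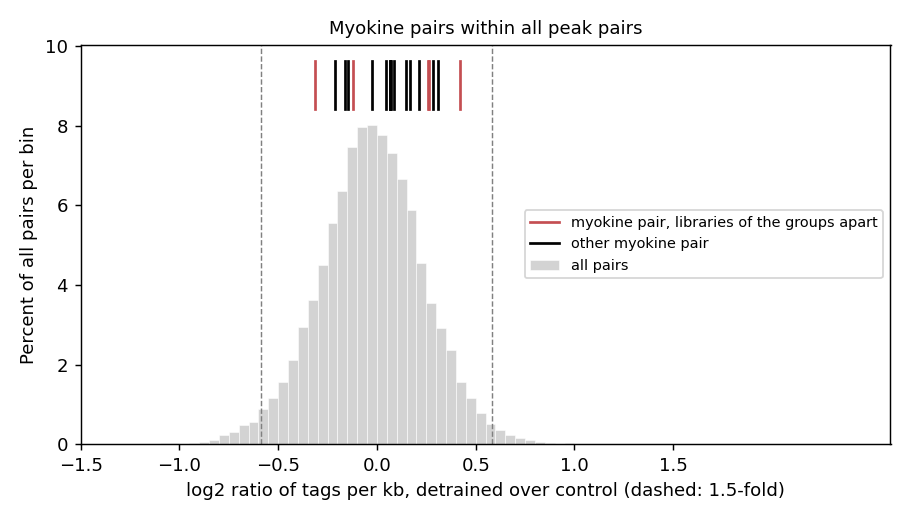
Distribution of the log2 ratio of tags per kb, detrained over control, over all 26432 pairs (grey bars, percent of pairs per bin), with each of the 19 myokine pairs as a vertical line above. Red lines are the 5 pairs whose libraries stood apart between groups, and all 19 lie inside the dashed lines at 1.5-fold.

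Where peaks were called to begin and end differed between the lists, and this entered the values. With tags per peak in place of tags per kb, 9 of the 19 pairs changed sign, as did 48.2% of all pairs. The groups then stood apart at 10 of the 19 pairs and at 53.4% of all pairs. Of the 10, only 1, the Lif pair 42.3 kb away, had also stood apart in the same direction by density. At 1.5-fold, 1 pair was higher and 2 were lower by tags per peak, where 5.51% of all pairs were higher and 5.08% lower, and these 3 were picked out here after their values were seen. The Lif pair 9.57 kb away was higher by 0.83 on the log2 scale with a called length of 1283 bp against 761 bp. The Lif pair 34.5 kb away and the Sparc pair 51.1 kb away were lower, at -0.69 and -0.71, with shorter detrained peaks. Their densities differed by 0.072, 0.26 and 0.086 on the log2 scale.

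**Figure D4:**
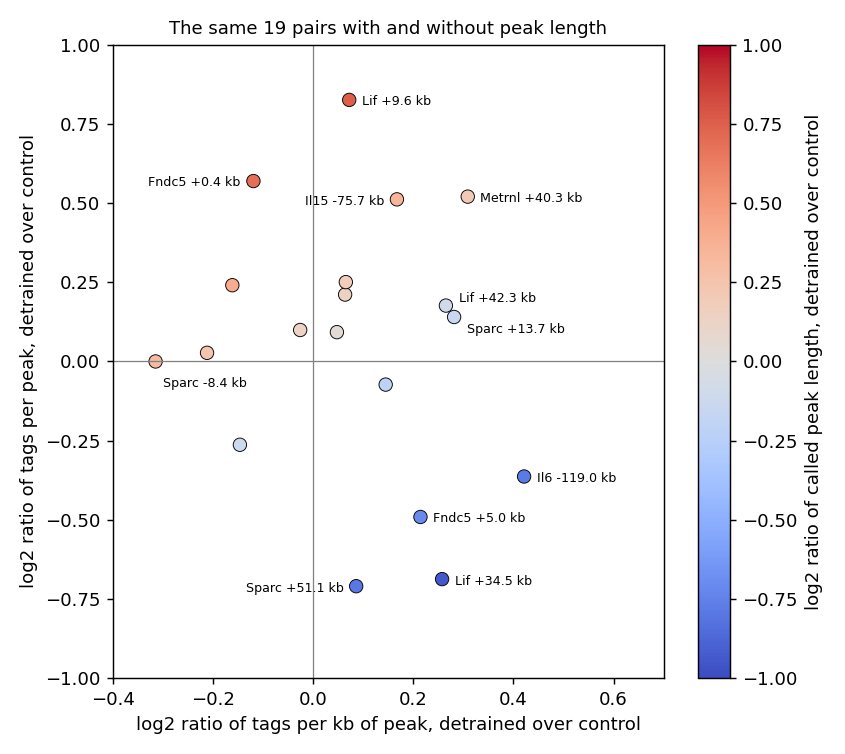
Log2 ratio of tags per kb (horizontal) against log2 ratio of tags per peak (vertical), detrained over control, for the 19 pairs, coloured by the log2 ratio of called peak length. Pairs called longer in detrained muscle (red) tend to lie high and those called shorter (blue) low; Lif +42.3 kb is higher on both axes, while Il6 -119.0 kb and Fndc5 +0.4 kb lie on opposite sides of 0.

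The receptors through which these myokines act differed widely in acetylation. Of 14 receptor genes, 9 had peaks, and Il2rb, Il2rg, Klb, Kit and Ngfr had none. Mean density at the strongest pair ran from 28.0 at Stab1, a scavenger receptor that takes up SPARC and is named here after its value was seen, to 110 at Lifr. Lifr, the LIF receptor, had densities of 111 (C2) and 119 (C3) in control and 103 (Ex1) and 108 (Ex2) in detrained libraries. Il6st, which encodes gp130, had 86.0 and 96.4 in control and 103 and 93.5 in detrained libraries. Itgav, an integrin subunit proposed to bind irisin, had 93.2 and 92.6 in control and 89.7 and 80.6 in detrained libraries. Of the 44 receptor pairs, 14 of them at Lifr, 7 (15.9%) were higher and 20 (45.5%) lower in density with the groups apart. This stood beside 21.3% and 27.2% of all pairs, and their median log2 ratio was -0.11. Where the strongest pair of a gene was lower in this way, tags per peak often were not. They differed by 0.14 at Itgav, 0.18 at Il6ra, 0.21 at Fgfr1, 0.42 at Stab1, 0 at Ntrk2, -0.075 at Itgb5 and -0.13 at Lifr on the log2 scale. At 1.5-fold 0 were higher and 2 lower (1.10% and 2.06% of all pairs), both at Ntrk2, the BDNF receptor gene, and named here after their values were seen. The Ntrk2 start-site pair had 20.8 (C2) and 23.2 (C3) in control and 13.1 (Ex1) and 15.1 (Ex2) in detrained libraries. Tags per peak there were also lower, by -0.41 on the log2 scale. The second Ntrk2 pair, 120 kb downstream of the start site, had densities of 36.6 (C2) and 23.95 (C3) in control and 13.7 (Ex1) and 23.72 (Ex2) in detrained libraries, a log2 difference of -0.71 (SD 0.50). C3 and Ex2 were nearly level there, and tags per peak differed by 0.042.

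Transcription factors and coactivators known to act on these genes were all marked. Of 58 pairs at 15 regulators, 13 (22.4%) were higher and 9 (15.5%) lower with the groups apart, beside 21.3% and 27.2% of all pairs, with a median log2 ratio of 0.0022. At 1.5-fold 3 were higher and 1 lower, where 1.10% and 2.06% of all pairs were. Atf4, a stress factor that drives Fgf21, had 94.0 (C2) and 105 (C3) in control and 153 (Ex1) and 153 (Ex2) in detrained libraries at its strongest pair, a log2 difference of 0.62 (SD 0.080). The detrained Atf4 peak was shorter, 3954 bp against 6869 bp, and its tags per peak differed by -0.17. Crtc2, a coactivator of CREB, had 62.7 and 56.6 in control and 35.8 and 37.6 in detrained libraries, a log2 difference of -0.70 (SD 0.082), and by tags per peak the difference was -1.66. The other 2 pairs at 1.5-fold, also named after their values were seen, lay 27.9 kb upstream of Ppargc1a, the PGC-1α gene, with a log2 difference of 0.76, and 251 kb upstream of Jun, with 0.70. Both were shorter in detrained muscle, and their tags per peak differed by 0.18 and 0.064. Fos and Jun themselves had the densest peaks among the regulators, together with Atf4. At the strongest Fos pair density was 134 and 152 in control and 129 and 103 in detrained libraries, and at that of Jun it was 123 and 144 against 127 and 116.

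Other factors secreted by muscle were marked at most loci, with peaks at 42 of 49 genes in control and 40 in detrained muscle. Of their 81 pairs, 19 (23.5%) were higher and 25 (30.9%) lower with the groups apart, close to the 21.3% and 27.2% of all pairs, and the median log2 ratio was -0.059. At 1.5-fold 0 were higher and 2 lower (1.10% and 2.06% of all pairs), an Igf1 pair (-1.002) and a Tgfb2 pair (-0.63), named after their values were seen, 41.4 and 44.2 kb from their start sites and both also lower in tags per peak, at -0.72 and -0.47. The densest were Vegfa, the angiogenic growth factor, with a mean of 121, Fndc3b, a relative of Fndc5, with 104, and Ctf1, a cytokine that uses gp130, with 104. None of these 3 stood apart between groups.

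No myokine gene had a promoter pair by the deposited class in both lists, so the genes most like them were sought among pairs whose control peak was centred within 1 kb of a start site, a rule chosen after seeing the data. Over the log2 densities of the 4 libraries, and among 7832 genes, the nearest to Fndc5 was Slc38a4 (Euclidean distance 0.035), that to Il15 was Slc46a3 (0.056), and that to Metrnl was Csrnp1 (0.040).

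Markers of some other cell types differed between the groups in their summed tags. Over 5 fibroblast genes, all with peaks, the sum was 2656 and 2592 tags per 10000000 in control and 3219 and 3256 in detrained libraries, over 73.1 and 84.5 kb of peak. Mean density there was 36.3 and 35.5 against 38.1 and 38.5. Of 13 fibroblast pairs 6 were higher and 2 lower with the groups apart, beside 21.3% and 27.2% of all pairs, and the median log2 ratio was 0.16 beside -0.026. At 1.5-fold 1 of them was higher, a pair of the collagen gene Col3a1 126 kb upstream (0.67), named after its value was seen, where 1.10% of all pairs were higher. Its called length was 1153 bp in control and 884 bp in detrained muscle, and its tags per peak differed by 0.26. Of 5 immune genes, 2 in control (Ptprc and Cd68) and 1 in detrained muscle (Cd68) had no peak. Their sum was 168 and 133 against 293 and 239 tags over 6.92 and 12.7 kb, with mean densities of 24.2 and 19.2 against 23.1 and 18.9. Over 4 satellite cell genes, of which Calcr had no peak, the sum was 348 and 377 against 499 and 512 tags over 17.7 and 24.7 kb, and mean density was 19.6 and 21.3 against 20.2 and 20.7. Sums for the 5 endothelial genes, all with peaks, overlapped between groups, at 2226 and 2615 against 2899 and 2290 tags, as did those of the 7 myofibre genes, at 4621 and 5899 against 5736 and 5479. By pairs, 4 of 14 endothelial pairs were higher and 2 lower with the groups apart (median log2 ratio 0.063), 1 of 7 myofibre pairs was higher and 0 lower (0.18), and 2 of 7 satellite cell pairs were higher and 2 lower (-0.080). At the strongest pair of each endothelial gene with a pair, log2 ratios of density ran from 0.13 to 0.35, and the groups overlapped at Cdh5 and Tie1. By tags per peak these pairs were lower at Tek (-0.19) and Kdr (-0.077) and higher at Tie1 (0.50) and Cdh5 (1.04). Adipoq and Plin1 had no peak in either list, and Lep had 2 in control only, which summed to 15.1 and 19.7 tags. The 3 neuronal genes summed to 426 and 438 against 369 and 420 tags. Of their 4 pairs, 3 were lower in density with the groups apart, as were 27.2% of all pairs, and the median log2 ratio was -0.32. The strongest pairs were distal and tied to these genes by distance alone, at -30503 bp from the start site for Rbfox3 and -34439 bp for Snap25. Their tags per peak differed by -0.52 and 0.071 on the log2 scale, and the amount of neuronal material was not tested. The largest difference was at Syt1, which encodes a synaptic vesicle protein, with densities of 54.6 (C2) and 45.04 (C3) in control and 25.6 (Ex1) and 29.1 (Ex2) in detrained libraries, a log2 difference of -0.86 (SD 0.17). This pair lies 141 kb from the Syt1 start site and was the only 1 of the 4 at 1.5-fold, where 2.06% of all pairs were lower. Its called length was 889 bp in control and 1325 bp in detrained muscle, and its tags per peak differed by -0.29. The part of these shifts in the values of Sparc, Lif and Il6 was not tested.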

How the data were processed

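Quadriceps H3K27ac ChIP-seq was measured in control and detrained mice. The control columns are numbered differently from the labels and were assigned to the group only. Per the labels and the methods of the study, the authors aligned single-end reads to mm10 with Bowtie (version 1.2 in the labels), and called peaks with HOMER, pooling the 2 H3K27ac libraries of a group and comparing them with its input, and named the nearest gene. The deposited signal of a peak is its pooled tags per 10000000. The deposited log2 values per library are regularized log values, which are shrunken for weak peaks. The authors' log2 fold over input and adjusted p-value of a peak were used only as a filter. Columns not used because they name another sample numbered 0.

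Pooled tags were shared between the libraries of a group in proportion to their totals and to 2 to the power of the log2 values. Density was (tags + 0.5) per kb per 10000000 tags. A pair was counted at 1.5-fold only where the libraries of the groups also stood apart. The files normalize each list on its own, so the groups were not tested against each other. Alternatives covered normalization, length, overlap, pseudocount, input subtraction, distance, stricter peaks and leaving out each library. All overlapping peaks were also summed, which was chosen after seeing the data. Intervals cover counting error only.

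The 8 genes and all gene lists were chosen with earlier results of these data known. The Schwann cell marker list is not reported here. The text names all 8 genes and, of each other list, the genes whose strongest pair was called at 1.5-fold and, apart from the cell type markers, the 3 genes with the highest density at that pair. Pairs at 1.5-fold that were not the strongest of their gene were named after their values were seen. Only the calling of pairs was tried on simulated data: of 200 of 26432 pairs changed 3-fold, 200 were recovered, and 453 unchanged pairs were called too. Recovery of smaller changes, such as 1.5-fold, was not tested. Gene positions and promoter sequences came from RefSeq GRCm38.p6. Software was scipy 1.17.1, numpy 2.4.6, pandas 2.3.3 and matplotlib 3.10.9 in Python 3.11.15.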

Additional observations from a re-analysis of the deposited data

How the results depend on the processing

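The count of 0 pairs at 1.5-fold held under every alternative except tags per peak, which gave 3. The number of the 19 pairs at which the groups stood apart, 5 by density, was 9 with tags in listed peaks as the total, 10 with tags per peak, 8 with 5 tags added, and 1 among the 9 pairs left when at least 80% of each peak had to be covered, beside 49.9%, 53.4%, 49.4% and 40.2% of all pairs under these settings. Without 1 library it ran from 11 to 14, beside 72.2% to 76.0% of all pairs, because a single library has no spread. The median log2 ratio of 0.072 became 0.12 with tags in listed peaks as the total and 0.11 after input subtraction, and ran from 0.014 to 0.13 without 1 library (lowest without C3, highest without C2). By tags per peak the Fndc5 start-site pair turned to 0.57 and the distal Il6 pair to -0.36, and by construction these values differ from the densities through called length alone. For Lif, the pair nearest to a start site in place of the densest gave -0.026. The small differences at the start sites changed sign without 1 library, to -0.084 at Il15 without C2, and at Metrnl to -0.035 without C3 and -0.080 without Ex1. Among peaks at least 4-fold over input with an adjusted p under 0.001, the 32 control and 28 detrained peaks became 15 and 19, which turns their order, and with equal numbers of the strongest peaks from each list they were 27 and 28. The 7 control and 3 detrained peaks without a partner became 8 and 7 when at least 50% of the peak had to be overlapped, so that the groups were then nearly equal. The causes of the other shifts were not tested. Depth limits the weak peaks, such as the Bdnf promoter peak with an estimated 57.9 raw tags of both control libraries. No paired analysis was possible because the columns of the groups carry numbers that do not match and no test between groups was made.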
